A study of Homo sapiens with 24 samples.

Results

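A set of 40 genes that run mitosis was followed through whole-genome doubling in 2 established lines of triple-negative breast cancer. HCC1806 is of basal epithelial and MDA-MB-231 of mesenchymal character. The set was chosen by name as spindle checkpoint, kinetochore and mitotic regulator genes without the kinesins, and all 40 were found among the 29744 genes of the count table. Of these, 40 passed the filter on low counts in HCC1806 (11467 genes tested) and 39 in MDA-MB-231 (11424 genes tested). SPC24, at 4 to 6 counts per control library, was the member that did not pass there. In each line the parental aneuploid population served as control. The other 3 populations had doubled their genome through fused cells, through mitotic slippage (exit from mitosis with no division) or through cytokinesis failure (a divided nucleus in an undivided cell). Doubled cells were sorted by flow cytometry and expanded. Each of the 8 groups held 3 biological replicates, grown for 48 hours and read by TAGseq, which sequences the 3′ ends of polyadenylated transcripts. A route in a line is 1 derived population, so that the route and the history of that population cannot be told apart, and replicates measure the spread within it. Ploidy at sampling was not analysed here.

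The spindle checkpoint holds cells in metaphase until every chromosome is attached to spindle microtubules. The kinases TTK and BUB1 and the adaptor proteins around MAD2L1, BUB1B and BUB3 keep CDC20, the activator of the anaphase-promoting complex, inactive. Once CDC20 is free, the complex marks securin (PTTG1) and the B-type cyclins for destruction, separase (ESPL1) cuts cohesin, and the chromosomes part. Transcripts of these genes peak in G2 and mitosis in cycling cells, where the MuvB complex with MYBL2 and FOXM1 acts through a promoter element called CHR (cell cycle genes homology region), often beside CCAAT boxes bound by NF-Y. In tumour cells with doubled genomes such genes are studied because more chromosomes have to be attached and separated in each division.

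The 120 bases before the annotated start are shown for 7 members on which the results below turn: genes that rose in HCC1806 (CCNB1, BUB1, DLGAP5 and CDC20), HMMR and PTTG1, each of which rose in MDA-MB-231 fusion and fell in MDA-MB-231 cytokinesis failure, and CENPE, which fell in HCC1806 cytokinesis failure where 20 members rose. Capitals mark a CHR (TTTGAA or TTCGAA, here also as TTCAAA on the other strand) or a CCAAT box (CCAAT, or ATTGG on the other strand), and sequences are from RefSeq on GRCh38.p14. The stretches are CCNB1 (chr5:69167030-69167149, plus strand), BUB1 (chr2:110678064-110678183, minus strand), DLGAP5 (chr14:55191586-55191705, minus strand), CDC20 (chr1:43358861-43358980, plus strand), HMMR (chr5:163460512-163460631, plus strand), PTTG1 (chr5:160421735-160421854, plus strand) and CENPE (chr4:103198344-103198463, minus strand).
CCNB1: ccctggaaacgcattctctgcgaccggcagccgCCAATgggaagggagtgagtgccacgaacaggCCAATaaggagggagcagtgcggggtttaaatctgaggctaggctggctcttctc
BUB1: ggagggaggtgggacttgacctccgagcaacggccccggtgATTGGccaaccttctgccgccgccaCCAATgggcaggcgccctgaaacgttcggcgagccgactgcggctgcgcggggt
DLGAP5: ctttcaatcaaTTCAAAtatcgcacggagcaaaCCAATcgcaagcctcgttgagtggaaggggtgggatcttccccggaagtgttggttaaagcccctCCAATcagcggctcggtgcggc
CDC20: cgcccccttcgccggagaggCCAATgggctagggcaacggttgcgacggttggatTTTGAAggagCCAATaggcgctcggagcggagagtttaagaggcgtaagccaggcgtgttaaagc
HMMR: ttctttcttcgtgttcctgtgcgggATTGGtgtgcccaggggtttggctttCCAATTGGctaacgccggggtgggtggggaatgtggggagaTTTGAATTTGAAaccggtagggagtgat
PTTG1: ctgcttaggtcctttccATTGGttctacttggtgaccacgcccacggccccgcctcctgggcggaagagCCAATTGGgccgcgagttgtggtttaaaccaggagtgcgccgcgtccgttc
CENPE: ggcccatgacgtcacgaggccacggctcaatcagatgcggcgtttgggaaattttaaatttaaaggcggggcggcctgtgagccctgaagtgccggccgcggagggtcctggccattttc

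The HMMR stretch carries 2 CHR copies side by side and 3 CCAAT boxes, 2 of which overlap. The CENPE stretch holds none of the letters searched, and other spellings of a CHR were not searched in any promoter. Stretches of the same length before NDC80, which rose in all 3 doubled HCC1806 populations, and before CDK1 also hold none of these letters. For those genes this holds only within that length. From 250 bases before to 50 after the start, NDC80 has 2 CHR copies, with first bases at -3 and 4. BUB1, with no CHR in its printed stretch, has a CHR with its first base at 2. CDK1 has a CHR at -161 and a CCAAT box at -150 there, whereas CENPE has neither motif. CDC25C, which rose in HCC1806 cytokinesis failure where CENPE fell, also has neither. RefSeq promoters (250 bases before to 50 after the start) were matched for 32 of the 40 members. A CHR was present in 71.9% of these 32, against 10.7% of the 9226 promoters of genes tested in either line and 16.6% of all 27305. A CCAAT box on either strand was present in 78.1%, against 37.1% and 35.7%. Both motifs stood together in 59.4% of the members' promoters and in 4.73% of those of tested genes, and 2 or more CCAAT boxes in 56.3% against 13.9%. An E2F-type site, a motif of S-phase genes, searched on both strands as TTTCGCGC, TTTGGCGC or TTTCCCGC, was present in 9.38% of members' promoters and 4.79% of those of tested genes. Letters that match are a description and do not show that a factor binds there.

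**Figure D1:**
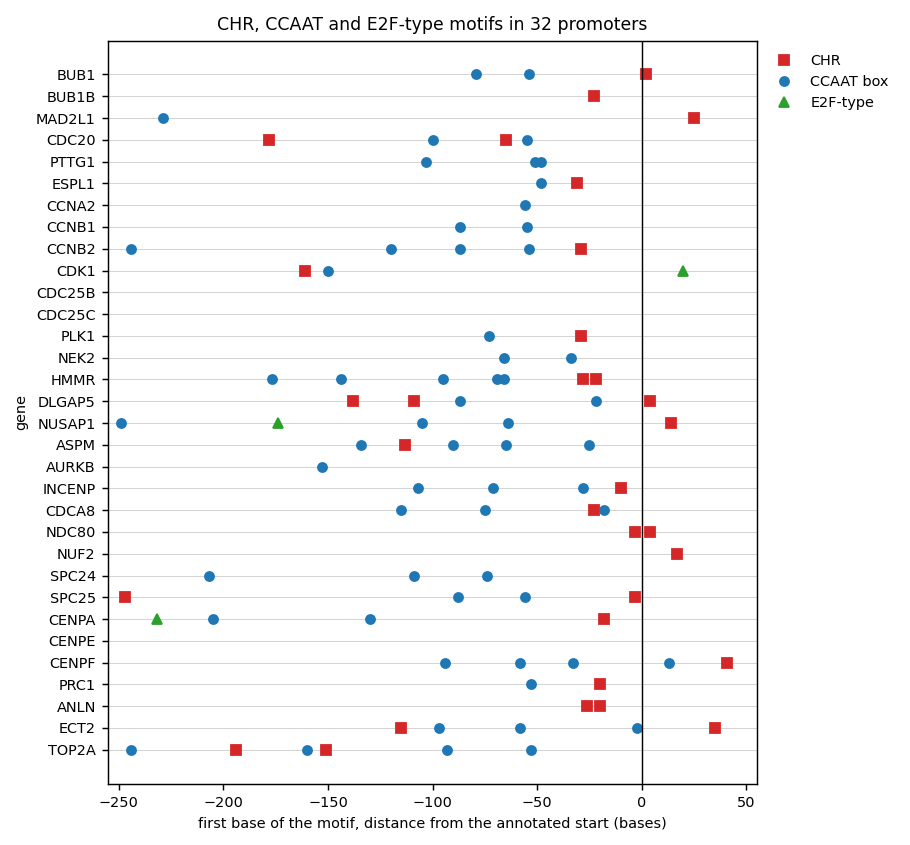
Position of each CHR (square), CCAAT box (circle) and E2F-type motif (triangle) on either strand in 32 promoters, by the distance in bases of its first base from the annotated start at 0. Of 60 CCAAT boxes 48 lie from 150 to 20 bases before the start, 22 of 32 CHR copies within 50 bases of it, and CDC25B, CDC25C and CENPE have none of the 3 motifs, as searched, in the window.

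Totals of estimated counts ran from 3060622 to 4030297 in HCC1806 and from 2455707 to 3837957 in MDA-MB-231, and the members had between 2 and 6351 counts in a library. Defining markers matched the line labels: the basal keratin KRT5 had 1135 to 1934 counts in HCC1806 and 0 to 1 in MDA-MB-231, and vimentin (VIM) 0 to 7 and 7598 to 11262. SPARC, also taken as a mesenchymal marker, had at most 4 counts in MDA-MB-231, and of the other cell types' defining markers CD3E, COL1A2 and CDH5 were at 0 in every library and PTPRC at 3 or below. Other markers on those lists had counts: CD68 89 to 138 in HCC1806 and 236 to 421 in MDA-MB-231, PECAM1 up to 25, COL1A1 up to 20 and LYZ up to 11. Marker levels differed between controls and doubled populations as well. In HCC1806 the 5 basal markers summed to 1403 to 1495 CPM in controls and 1209.8 to 1351 in doubled libraries, with 2 called lower in each doubled population and 1 higher in cytokinesis failure. The 4 mesenchymal markers summed to 20.7 to 24.2 and 8.42 to 15.7 CPM there, with 1 called lower in each. In MDA-MB-231 the mesenchymal sum was 3033 to 3081 CPM in controls and 3099 to 3531 in doubled libraries, with 1 marker lower in fusion and 1 higher in each of the other two. The 5 immune markers summed to 68.5 to 77.3 and 91.5 to 125 CPM, with 1 called higher in each doubled population. The part of these markers in the results was not tested. In MDA-MB-231, slippage replicate 3 and cytokinesis failure replicate 1 stood apart from their replicates. Chi-square per degree of freedom was 2.34 to 2.55 where a replicate pair held one of them and 1.29 to 1.92 elsewhere, and results for named members that rest on them are given with and without them. As the RNA is bulk, a larger share of cells in mitosis and more transcript per mitotic cell cannot be told apart. Levels are CPM, counts scaled to library size with TMM factors within a line, and fold changes are on the log2 scale with the standard error after ±. The words rose, fell and called mean an adjusted p below 0.05 in edgeR's quasi-likelihood test over all genes tested. A call is said to be lost where the adjusted p was 0.05 or more in another setting. The settings were DESeq2, limma on log2(TPM + 1) or log2(TPM + 0.1), another filter or scaling, the replicate number as a block, fewer libraries in the fit, or 1 library left out. A loss on log2(TPM + 0.1) is printed only where the call held on log2(TPM + 1). Loss was checked for the members given with values per library and for the line differences named. Other calls given by fold change alone were not rechecked one by one.

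Mitotic regulators rose in each doubled HCC1806 population, from 7 genes after slippage to 20 after cytokinesis failure, while in MDA-MB-231 9 rose after fusion and 1 after each of the other routes. In HCC1806 fusion, 10 of 40 rose and 1 fell (10.9% of all tested genes were called, 5.33% higher and 5.55% lower). In HCC1806 slippage 7 rose and 0 fell (3.33% of all, 1.53% higher and 1.81% lower). In HCC1806 cytokinesis failure 20 rose and 1 fell (17.0% of all, 8.37% higher and 8.63% lower). In MDA-MB-231 fusion, 9 of 39 rose and 1 fell (17.4% of all, 9.34% higher and 8.11% lower). In MDA-MB-231 slippage 1 rose and 2 fell (6.18% of all, 3.27% higher and 2.91% lower), and so did 1 and 2 in cytokinesis failure (4.64% of all, 2.29% higher and 2.35% lower). With edgeR, 0 members were lower in HCC1806 slippage at an unadjusted p below 0.05, and DESeq2 called 0 lower there. With edgeR, the members' share of calls lay above the background in the 3 HCC1806 populations. For rises it also did in MDA-MB-231 fusion, and it lay near the background in the other 2 MDA-MB-231 populations. The median fold change over the members was 0.12, 0.12 and 0.17 in HCC1806 fusion, slippage and cytokinesis failure and 0.04, 0.03 and 0.04 in MDA-MB-231, where the median over all genes was 0.00 in each. The 3 comparisons of a line share its control libraries. With DESeq2, 6, 2 and 15 members were called in the 3 HCC1806 populations, and with limma on log2(TPM + 1) 2, 0 and 18 (10 in slippage at an unadjusted p below 0.05), where fewer genes were called in all. With limma on that scale, the members' share of calls was not above that of all genes in HCC1806 fusion and slippage. In HCC1806 cytokinesis failure it stayed above.

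The summed level of the 40 genes was 6982 to 7061 CPM in HCC1806 controls, 7393 to 7451 in fusion, 7449 to 7549.5 in slippage and 7654 to 7842 in cytokinesis failure. Every doubled library lay above the controls. In MDA-MB-231 it was 9681 to 9771 CPM in controls, 9933 to 10037 in fusion, 9795 to 9827 in slippage and 10001 to 10396 in cytokinesis failure. The highest of these, in cytokinesis failure replicate 1, came from the shallowest library, which stood apart. Every doubled MDA-MB-231 library also lay above the controls, but in slippage by little, with a lowest sum of 9795 against a highest control of 9771 CPM. Members with high counts weigh most in these sums. The sum over 32 DNA replication genes, which peak in S phase, was 3156 to 3233 CPM in HCC1806 controls, 3206 to 3319 in fusion, 3119.8 to 3129 in slippage and 3236 to 3258 in cytokinesis failure. In MDA-MB-231 it was 4190.3 to 4262 CPM in controls, 4338 to 4485 in fusion, 4028 to 4064 in slippage and 4051 to 4169.8 in cytokinesis failure, so that fusion lay above the controls and the other two below them. Its part in the results was not tested. Of those replication genes, 2 rose and 1 fell in HCC1806 fusion, 0 rose and 1 fell in slippage and 4 rose and 1 fell in cytokinesis failure. In MDA-MB-231 8 rose and 2 fell, 0 rose and 3 fell and 0 rose and 1 fell, in the same order. The count of members called in HCC1806 fusion (11) was 5 without control replicate 1, 6 without fusion replicate 1 and 7 without fusion replicate 3. That in slippage (7) was 3 without control replicate 1. In MDA-MB-231 the fusion count (10) was 5 without control replicate 1, 4 without control replicate 3 and 5 without fusion replicate 2. The slippage count (3) was 1 when control 1, control 2 or slippage 2 was left out, and 2 without both libraries that stood apart. The cytokinesis failure count (3) was 1 when control 1, control 3, cytokinesis failure 2 or cytokinesis failure 3 was left out. With scaling by library totals, MDA-MB-231 fusion had 5 members higher and 2 lower, with an all-gene median of -0.05. On log2(TPM + 1) with limma it had 2 higher and 3 lower, with an all-gene median of -0.11, so the balance of rises over falls in that population did not hold on that scale.

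**Figure D2:**
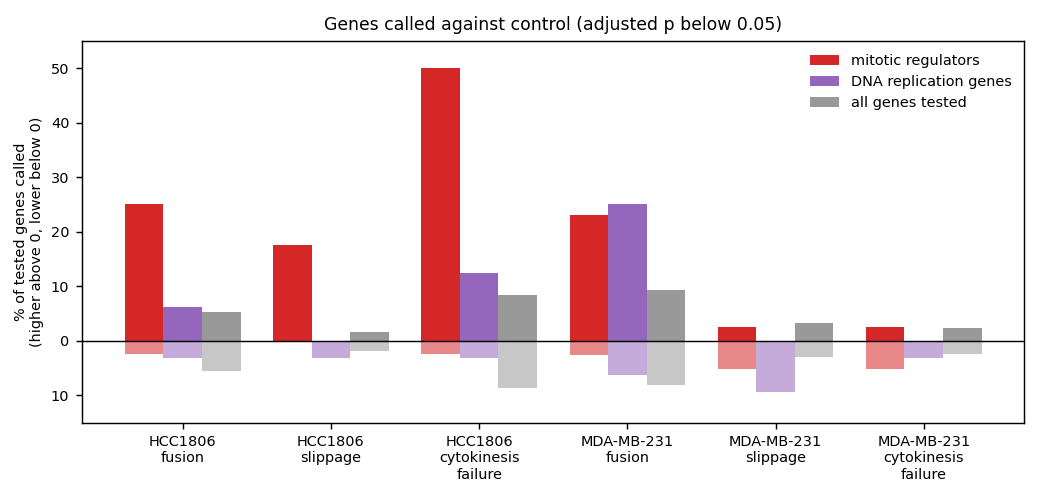
Percentage of tested genes called higher (bars above 0) and lower (paler bars below 0) against the control of the line, for the 40 mitotic regulators (39 in MDA-MB-231), 32 DNA replication genes and all genes tested. In the 3 HCC1806 comparisons the bar of mitotic regulators called higher stands above that of all genes, and in MDA-MB-231 slippage and cytokinesis failure 1 member was called higher in each.

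Across the 6 comparisons with control, 30 members were called at least once and 10 never: MAD2L1, UBE2C, ESPL1, CDC25B, PLK1, AURKA, AURKB, INCENP, SPC24 and SPC25. BUB1, CCNB1, NEK2, DLGAP5 and NDC80 rose in all 3 doubled HCC1806 populations, and no member was called in all 3 populations of MDA-MB-231. Calls over several comparisons were not counted for all tested genes, so these counts stand without a background. NUSAP1 and CENPE were called in opposite directions within HCC1806, and HMMR and PTTG1 within MDA-MB-231. Among the 4 HCC1806 populations, the control had the lowest mean of 22 of 40 members and the cytokinesis failure population the highest of 21. In MDA-MB-231 the control had the lowest mean of 17, and the highest lay in cytokinesis failure for 16 and in fusion for 15. Means were ranked for the members only, so the share over all genes is not known. In HCC1806, 14 of 40 members had all 3 fusion libraries above all 3 control libraries (13.3% of all genes), 19 in slippage (9.16%) and 24 in cytokinesis failure (15.9%). The reverse order held for 1 (13.3%), 0 (8.93%) and 2 (15.7%). In MDA-MB-231, 12 of 39 members lay wholly above the controls after fusion (17.3%), 7 after slippage (12.4%) and 6 after cytokinesis failure (11.1%), and 4 (17.0%), 3 (11.9%) and 3 (11.1%) wholly below.

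**Figure D3:**
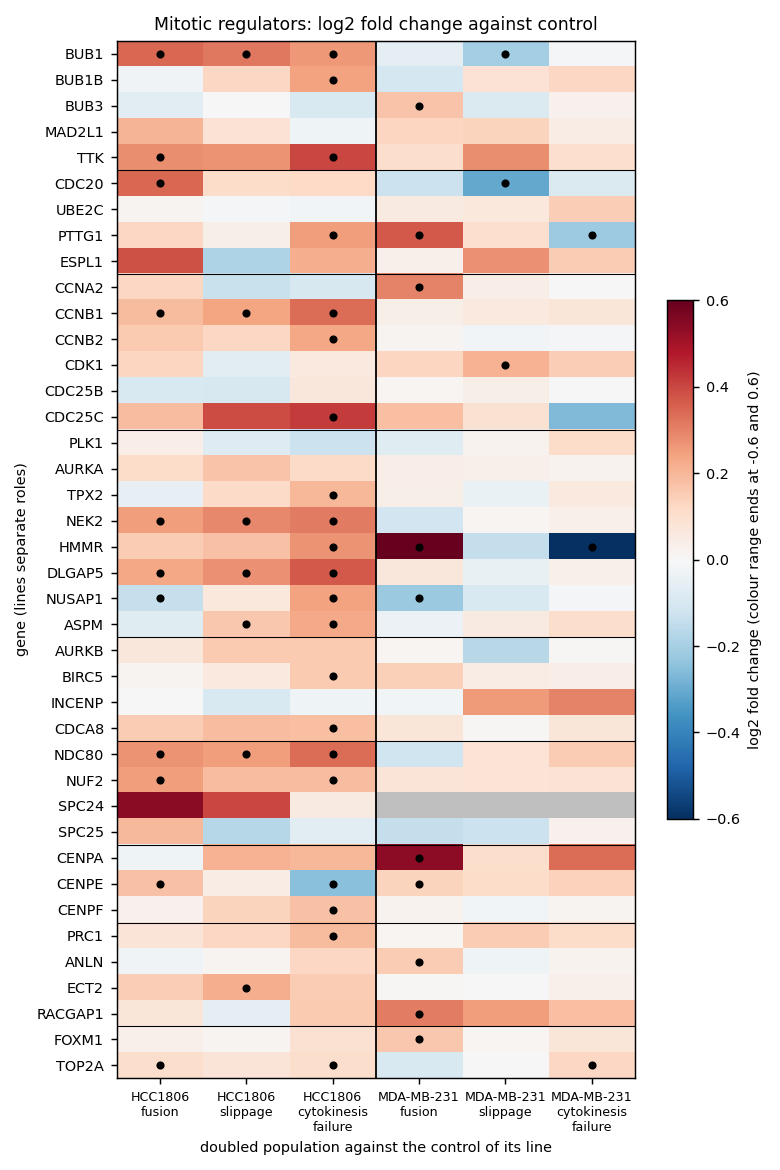
Log2 fold change of each member (rows, separated by role) in each doubled population against the control of its line (columns), on a colour range that ends at -0.6 and 0.6, with a dot where the member was called. Dots mark 11, 7 and 21 members in the HCC1806 columns and 10, 3 and 3 in the MDA-MB-231 columns, and HMMR in MDA-MB-231 cytokinesis failure (-0.78) is the deepest blue cell.

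Among the 5 checkpoint genes, the kinase BUB1, which marks centromeres and recruits checkpoint proteins to kinetochores, rose in every doubled HCC1806 population. Its levels were 64.5, 77.6 and 68.5 CPM in the controls, 84.3, 87.4 and 94.5 after fusion, 86.3, 85.0 and 89.4 after slippage and 82.9, 84.8 and 83.5 after cytokinesis failure. All 9 doubled libraries lay above the 3 controls, by 0.34 ± 0.075 (adjusted p = 0.000523) in fusion, 0.32 ± 0.075 (adjusted p = 0.00520) in slippage and 0.26 ± 0.074 (adjusted p = 0.00692) in cytokinesis failure. In MDA-MB-231, BUB1 stood at 170.3, 181 and 166 CPM in the controls and 152, 141 and 157 in slippage. The slippage libraries lay below the controls there, with a fall of 0.21 ± 0.065 (adjusted p = 0.0475). TTK, the MPS1 kinase that starts checkpoint signalling, rose in HCC1806 fusion (0.28 ± 0.085) and cytokinesis failure (0.40 ± 0.081). BUB1B, the BubR1 protein that binds and inhibits CDC20, rose in HCC1806 cytokinesis failure (0.24 ± 0.059), and BUB3, its binding partner, in MDA-MB-231 fusion (0.17 ± 0.052). MAD2L1, the MAD2 protein that captures CDC20, was not called against control, with values between -0.03 ± 0.086 and 0.21 ± 0.086. It was called higher in HCC1806 fusion than in HCC1806 cytokinesis failure. The BUB1 calls were lost in HCC1806 slippage (adjusted p 0.0756 with DESeq2, 0.121 on log2(TPM + 1) and 0.0904 when control 1 was left out) and cytokinesis failure (adjusted p 0.0745 with DESeq2 and 0.0905 when control 1 was left out). The MDA-MB-231 call was lost (adjusted p 0.107 with DESeq2, 0.141 on log2(TPM + 1), 0.0709 with the replicate block, 0.0506 with scaling by library totals and 0.0747 to 0.256 when control 1, control 2, control 3, slippage 1 or slippage 2 was left out), and without both libraries that stood apart its adjusted p was 0.0121.

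CDC20, through which the checkpoint acts on the anaphase-promoting complex, was the member with the smallest adjusted p in HCC1806 fusion and MDA-MB-231 slippage, in opposite directions. It stood at 257, 248 and 254 CPM in HCC1806 controls and 301, 336 and 327 in fusion, without overlap, and rose by 0.34 ± 0.048 (adjusted p = 5.08e-08). Slippage at 267, 265 and 289 and cytokinesis failure at 284, 278 and 264 CPM also lay above the controls, and their fold changes of 0.11 ± 0.049 and 0.12 ± 0.048 were not called. In MDA-MB-231 the controls were at 316, 297 and 304 CPM and slippage at 272, 254 and 216, all below, with a fall of 0.31 ± 0.065 (adjusted p = 0.00264). The lowest of these was the library that stood apart, and without both such libraries the adjusted p of the fall was 0.00792. UBE2C, the ubiquitin-conjugating enzyme of the complex, ranged from -0.02 ± 0.051 to 0.15 ± 0.059 and separase ESPL1 from -0.18 ± 0.17 to 0.38 ± 0.16, neither called against control. ESPL1 was called higher in HCC1806 fusion than in HCC1806 slippage.

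Securin (PTTG1), the inhibitor of separase, rose in HCC1806 cytokinesis failure and moved both ways in MDA-MB-231. In HCC1806 it stood at 107, 97.5 and 99.1 CPM in the controls and 122, 115 and 126 in cytokinesis failure, above without overlap, with a rise of 0.25 ± 0.065 (adjusted p = 0.00275). In MDA-MB-231 the controls held 209, 184 and 217 CPM, fusion 275, 267 and 246, slippage 215, 212 and 228 and cytokinesis failure 183, 169 and 174. Fusion lay above all controls and rose by 0.37 ± 0.062 (adjusted p = 3.07e-05), while cytokinesis failure lay below them and fell by 0.22 ± 0.065 (adjusted p = 0.0372). PTTG1 has near-identical copies, PTTG2 and PTTG3P, among which reads can be split, so its values are uncertain. The PTTG1 fall was lost (adjusted p 0.106 with DESeq2, 0.164 on log2(TPM + 1), 0.0575 with the replicate block and 0.0946 to 0.264 when control 1, control 3, cytokinesis failure 2 or cytokinesis failure 3 was left out). Without both libraries that stood apart its adjusted p was 0.00647.

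Cyclin B1 (CCNB1), which drives CDK1 into mitosis, rose in all 3 HCC1806 populations. Levels were 240.3, 242 and 216 CPM in the controls, 263, 265 and 268 after fusion, 268, 268 and 284 after slippage and 289, 296 and 294 after cytokinesis failure. All 9 doubled libraries exceeded the controls, with rises of 0.19 ± 0.049 (adjusted p = 0.00439), 0.24 ± 0.049 (adjusted p = 0.000922) and 0.33 ± 0.048 (adjusted p = 5.42e-08). Cyclin B2 (CCNB2, 0.23 ± 0.077) and the phosphatase CDC25C, which removes the inhibitory phosphates of CDK1 (0.42 ± 0.12), rose in HCC1806 cytokinesis failure. In MDA-MB-231, CCNB1 was 0.04 ± 0.054, 0.06 ± 0.054 and 0.07 ± 0.054 in the 3 populations, none called. Cyclin A2 (CCNA2), active in S phase and G2, rose in MDA-MB-231 fusion from 127, 163 and 151 CPM in the controls to 187, 177 and 177, without overlap, by 0.30 ± 0.072 (adjusted p = 0.00288). CDK1 rose in MDA-MB-231 slippage from 244, 241 and 244 to 255, 289.5 and 298 CPM, without overlap, by 0.21 ± 0.060 (adjusted p = 0.0275). CDC25B was not called in any comparison of a doubled population with its control. The CCNB1 calls were lost in fusion (adjusted p 0.151 on log2(TPM + 1) and 0.0981 when control 3 was left out) and in slippage (adjusted p 0.125 on log2(TPM + 1)). In MDA-MB-231 the CCNA2 call was lost (adjusted p 0.223 on log2(TPM + 1) and 0.0709 when control 1 was left out), as was that of CDK1 (adjusted p 0.0640 with DESeq2, 0.268 on log2(TPM + 1), 0.0503 with the replicate block, 0.0789 without both libraries that stood apart and 0.0841 to 0.157 when control 1, control 2, control 3, slippage 2 or slippage 3 was left out).

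Of the 8 spindle kinases and assembly factors, 6 rose in HCC1806 cytokinesis failure. DLGAP5 (HURP), which stabilises kinetochore microtubules, stood at 166, 178 and 170.4 CPM in HCC1806 controls, 209.7, 189.5 and 205 after fusion, 224, 186 and 211 after slippage and 221, 228 and 214 after cytokinesis failure. Every doubled library lay above the controls, with rises of 0.23 ± 0.057 (adjusted p = 0.00233), 0.28 ± 0.057 (adjusted p = 0.000783) and 0.37 ± 0.056 (adjusted p = 1.80e-07). The centrosomal kinase NEK2 stood at 73.5, 85.5 and 82.2 CPM in the controls, 100.3, 94.0 and 91.7 after fusion, 92.9, 96.8 and 104 after slippage and 99.4, 97.0 and 102 after cytokinesis failure. Again all 9 doubled libraries lay above the controls, and NEK2 rose by 0.25 ± 0.072 (adjusted p = 0.0119), 0.29 ± 0.071 (adjusted p = 0.00894) and 0.31 ± 0.070 (adjusted p = 0.000523). ASPM, which holds spindle poles together, rose in slippage (0.16 ± 0.048) and cytokinesis failure (0.23 ± 0.047), and TPX2, the activator of Aurora A, in cytokinesis failure (0.20 ± 0.044). Polo-like kinase PLK1 (from -0.13 ± 0.092 to 0.11 ± 0.073) and AURKA, Aurora A itself (from 0.02 ± 0.057 to 0.17 ± 0.065), were not called in any comparison with control. The DLGAP5 calls were lost in fusion (adjusted p 0.179 on log2(TPM + 1)) and slippage (adjusted p 0.205 on log2(TPM + 1) and 0.0506 when slippage 1 was left out). Those of NEK2 were lost in fusion (adjusted p 0.0956 with DESeq2, 0.0774 on log2(TPM + 1) and 0.113 to 0.157 when control 1 or fusion 1 was left out) and slippage (adjusted p 0.0991 with DESeq2, 0.0906 on log2(TPM + 1) and 0.113 to 0.159 when control 1 or slippage 3 was left out).

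NUSAP1, a microtubule-bundling protein of the central spindle, split the HCC1806 populations. It stood at 293, 298 and 287 CPM in the controls, 265, 267 and 265 after fusion, 299.6, 299 and 317 after slippage and 358, 331 and 347 after cytokinesis failure. The fusion libraries lay below the controls with a fall of 0.14 ± 0.047 (adjusted p = 0.0411) and the cytokinesis failure libraries above them with a rise of 0.24 ± 0.045 (adjusted p = 2.79e-05). In MDA-MB-231, NUSAP1 fell in fusion too, from 223, 217 and 242 to 198, 194 and 192 CPM, by 0.22 ± 0.062 (adjusted p = 0.00896). The HCC1806 fusion fall was lost (adjusted p 0.123 with DESeq2, 0.0738 on log2(TPM + 1) and 0.0742 to 0.111 when control 1, control 2, fusion 1, fusion 2 or fusion 3 was left out) and the MDA-MB-231 fall (adjusted p 0.105 when control 3 was left out).

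HMMR, a hyaluronan receptor that also binds spindle microtubules and TPX2, had the largest fold changes of any member against control. In MDA-MB-231 the controls held 24.7, 23.8 and 23.8 CPM, fusion 34.4, 41.7 and 36.3, slippage 17.3, 27.1 and 20.5 and cytokinesis failure 16.9, 12.6 and 13.4, from 41 to 50 counts in cytokinesis failure to 105 to 137 in fusion. Fusion lay wholly above the controls and cytokinesis failure wholly below, with a rise of 0.64 ± 0.14 (adjusted p = 0.000766) and a fall of 0.78 ± 0.16 (adjusted p = 0.00178), while the slippage libraries spread over the controls. In HCC1806, HMMR stood at 70.7, 80.9 and 76.0 CPM in the controls and 85.7, 90.2 and 97.6 in cytokinesis failure, above without overlap, a rise of 0.27 ± 0.073 (adjusted p = 0.00493). Without both libraries that stood apart, the MDA-MB-231 fall had an adjusted p of 0.000216. The HCC1806 rise was lost (adjusted p 0.0646 with DESeq2 and 0.0537 to 0.0641 when control 1 or cytokinesis failure 3 was left out), and the MDA-MB-231 fusion rise on log2(TPM + 0.1) (adjusted p 0.0503).

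**Figure D4:**
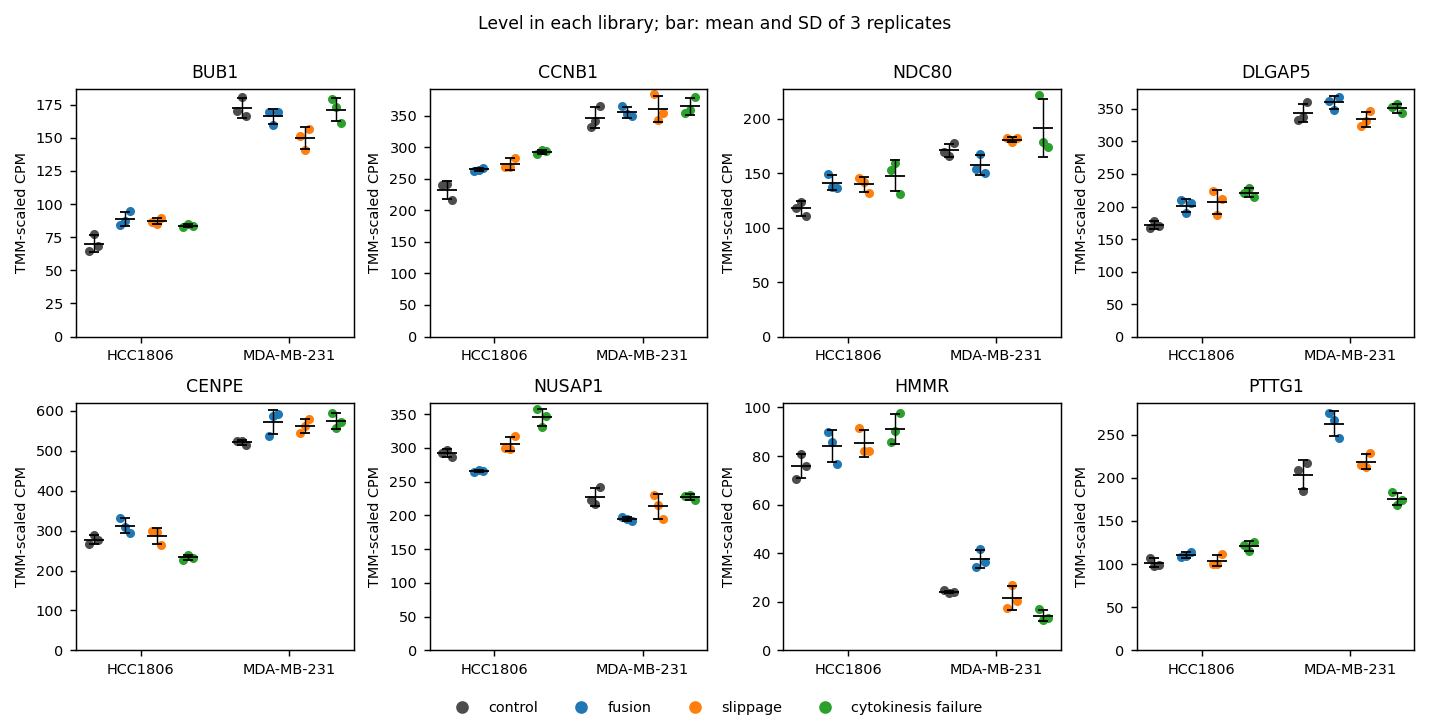
TMM-scaled CPM of 8 members in each of the 24 libraries (points), with the mean and SD of 3 replicates (bars), by line and population; each vertical axis starts at 0. BUB1, CCNB1, NDC80 and DLGAP5 are higher in all doubled HCC1806 libraries than in the controls, CENPE and NUSAP1 move in opposite directions within HCC1806, and HMMR and PTTG1 are highest in fusion and lowest in cytokinesis failure in MDA-MB-231.

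The NDC80 complex ties kinetochores to microtubules, and its subunit NDC80 (HEC1) rose in every doubled HCC1806 population. Its level was 118, 124 and 110.4 CPM in the controls, 149, 138 and 137 after fusion, 146, 141 and 131 after slippage and 153, 159 and 131 after cytokinesis failure. All 9 doubled libraries lay above the controls, with rises of 0.27 ± 0.066 (adjusted p = 0.00261), 0.25 ± 0.066 (adjusted p = 0.0145) and 0.33 ± 0.064 (adjusted p = 4.95e-05). NUF2, its direct partner in the complex, rose in fusion (0.25 ± 0.067) and cytokinesis failure (0.18 ± 0.066). SPC25 ranged from -0.17 ± 0.13 to 0.19 ± 0.12 and SPC24, at 4 to 12 counts per HCC1806 library, gave standard errors of about its fold changes (0.54 ± 0.50 in fusion), so that a difference was not detectable at this depth. The NDC80 calls were lost in fusion (adjusted p 0.111 on log2(TPM + 1)) and in slippage (adjusted p 0.119 with DESeq2, 0.242 on log2(TPM + 1) and 0.0547 to 0.156 when control 1, control 3, slippage 1 or slippage 2 was left out).

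CENPE, the kinetochore motor that brings chromosomes to the metaphase plate, fell in HCC1806 cytokinesis failure, where 20 members rose. In HCC1806 it stood at 267, 289 and 276 CPM in the controls, 333, 310.3 and 295 after fusion, 299, 296 and 263 after slippage and 227, 239 and 233 after cytokinesis failure. Fusion lay above the controls with a rise of 0.18 ± 0.049 (adjusted p = 0.00959) and cytokinesis failure below them with a fall of 0.25 ± 0.050 (adjusted p = 9.45e-05). In MDA-MB-231 fusion it rose by 0.13 ± 0.048 (adjusted p = 0.0472), from 525, 524 and 514 to 537, 586 and 591 CPM, without overlap. CENPF, a large protein of the outer kinetochore, rose in HCC1806 cytokinesis failure (0.18 ± 0.041), and CENPA, the histone H3 variant that marks centromeres, in MDA-MB-231 fusion (0.54 ± 0.15). The CENPE calls were lost in HCC1806 fusion (adjusted p 0.0592 with DESeq2, 0.310 on log2(TPM + 1) and 0.0796 to 0.140 when control 1 or fusion 1 was left out) and in HCC1806 cytokinesis failure (adjusted p 0.0689 on log2(TPM + 1)). In MDA-MB-231 the call was lost (adjusted p 0.0587 with no filter, 0.0888 with DESeq2, 0.938 on log2(TPM + 1), 0.0666 with the replicate block, 0.195 with scaling by library totals and 0.0914 to 0.180 when control 1, control 2, control 3, fusion 2 or fusion 3 was left out).

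The chromosomal passenger complex corrects wrong attachments of chromosomes. Its members survivin (BIRC5, 0.16 ± 0.040) and borealin (CDCA8, 0.18 ± 0.062) rose in HCC1806 cytokinesis failure. The kinase AURKB (from -0.17 ± 0.089 to 0.16 ± 0.061) and its activator INCENP (from -0.09 ± 0.20 to 0.30 ± 0.19) were not called in any comparison with control. Among the cytokinesis genes, PRC1, which bundles midzone microtubules, rose in HCC1806 cytokinesis failure (0.19 ± 0.051) and the RhoA exchange factor ECT2 in HCC1806 slippage (0.22 ± 0.060). In MDA-MB-231 fusion, the actin-binding ring protein anillin (ANLN, 0.15 ± 0.050) and RACGAP1, the centralspindlin partner of ECT2 (0.31 ± 0.091), rose. FOXM1, a transcription factor for G2 and mitotic genes, rose in MDA-MB-231 fusion (0.16 ± 0.057) and lay between 0.02 ± 0.056 and 0.09 ± 0.055 in HCC1806, not called. Topoisomerase TOP2A, which untangles sister chromatids, rose in HCC1806 fusion (0.11 ± 0.035) and cytokinesis failure (0.11 ± 0.035) and in MDA-MB-231 cytokinesis failure. There it went from 1502, 1498 and 1535 CPM in the controls to 1689.8, 1629.6 and 1632, all above, by 0.13 ± 0.038 (adjusted p = 0.0454). That call was lost (adjusted p 0.0564 with no filter, 0.0530 with a stricter filter, 0.287 on log2(TPM + 1), 0.0712 with the replicate block, 0.050 with only the 6 libraries compared and 0.0710 to 0.191 when control 1, control 2, control 3, cytokinesis failure 1, cytokinesis failure 2 or cytokinesis failure 3 was left out), and without both libraries that stood apart its adjusted p was 0.0447.

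The doubled populations of a line also differed from each other. In HCC1806, fusion against cytokinesis failure had 12 members called, 4 higher and 8 lower (17.9% of all tested genes were called). Fusion against slippage had 7, 4 higher and 3 lower (9.23%), and slippage against cytokinesis failure 3, 1 higher and 2 lower (6.80%). CENPE was higher in fusion than in cytokinesis failure by 0.43 ± 0.050 (adjusted p = 4.34e-11) and in slippage by 0.30 ± 0.050 (adjusted p = 9.13e-06). NUSAP1 was lower in fusion than in cytokinesis failure, at -0.38 ± 0.046 (adjusted p = 1.49e-10), and in slippage, at -0.18 ± 0.045 (adjusted p = 0.00621). CDC20 was higher in fusion than in slippage by 0.23 ± 0.048 (adjusted p = 0.000290) and ASPM lower, at -0.23 ± 0.048 (adjusted p = 0.000302), with 266, 262 and 246 CPM against 316, 305 and 288. The call of NUSAP1 between slippage and cytokinesis failure was lost (adjusted p 0.0600 when cytokinesis failure 1 was left out). On log2(TPM + 1) the calls of CENPE in the same pair (adjusted p 0.107), CDC20 (adjusted p 0.0647) and ASPM (adjusted p 0.163) were lost. The count for slippage against cytokinesis failure was 1 without cytokinesis failure replicate 1, and with scaling by library totals 3 members were higher and 12 lower in fusion than in cytokinesis failure.

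In MDA-MB-231, fusion against cytokinesis failure had 11 members called, 6 higher and 5 lower (24.5% of all genes were called), and fusion against slippage 7, 6 higher and 1 lower (17.1%). Slippage against cytokinesis failure had 2 higher and 0 lower with edgeR (3.18%), where 4 were lower at an unadjusted p below 0.05. HMMR was higher in fusion than in cytokinesis failure by 1.42 ± 0.15 (adjusted p = 2.00e-09) and than in slippage by 0.78 ± 0.14 (adjusted p = 6.17e-05). It was also higher in slippage than in cytokinesis failure, by 0.64 ± 0.17 (adjusted p = 0.0221). PTTG1 followed in the same order, higher in fusion than in cytokinesis failure by 0.59 ± 0.064 (adjusted p = 2.28e-09) and in slippage than in cytokinesis failure by 0.32 ± 0.064 (adjusted p = 0.00162). BUB3 was higher in fusion than in slippage, by 0.26 ± 0.052 (adjusted p = 0.000308), with 360.4, 347 and 339 CPM against 298, 282 and 295. The HMMR call between slippage and cytokinesis failure was lost (adjusted p 0.111 with DESeq2, 0.143 on log2(TPM + 1), 0.0802 with only the 6 libraries compared and 0.0943 to 0.259 when slippage 2, cytokinesis failure 2 or cytokinesis failure 3 was left out). Those of PTTG1 in that pair (adjusted p 0.0838) and of BUB3 (adjusted p 0.405) were lost on log2(TPM + 1). Without both libraries that stood apart, the adjusted p between slippage and cytokinesis failure was 0.00822 for HMMR and 0.00218 for PTTG1, and that of BUB3 between fusion and slippage 6.53e-05. For HMMR it was 2.20e-12 between fusion and cytokinesis failure and 7.42e-05 between fusion and slippage, and for PTTG1 3.96e-13 between fusion and cytokinesis failure. The count for fusion against slippage (7) was 11 without both libraries that stood apart and 4 without slippage replicate 2. That for fusion against cytokinesis failure (11) was 8 without both libraries and 7 without fusion replicate 1, and that for slippage against cytokinesis failure (2) was 1 when slippage 2, cytokinesis failure 2 or cytokinesis failure 3 was left out. With scaling by library totals, the splits became 4 higher and 7 lower for fusion against cytokinesis failure and 4 and 5 for fusion against slippage. On log2(TPM + 1) with limma they were 2 higher and 10 lower and 1 higher and 4 lower, and in HCC1806 fusion against cytokinesis failure 1 higher and 11 lower, so the balance of these comparisons leaned to fewer higher than lower on that scale.

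The effect of a route was tested against the same route in the other line in 1 fit of all 24 libraries, with 12563 genes. For fusion, 5 members had a more positive effect in HCC1806 (5.48% of all genes) and 3 in MDA-MB-231 (6.57%). For slippage the counts were 3 (1.66%) and 1 (1.88%), and for cytokinesis failure 6 (3.31%) and 1 (3.22%). CDC20 differed by 0.47 ± 0.081 (adjusted p = 1.37e-05) in fusion and 0.42 ± 0.082 (adjusted p = 0.000456) in slippage, and BUB1 by 0.39 ± 0.10 (adjusted p = 0.00392) and 0.52 ± 0.10 (adjusted p = 0.000307). TOP2A differed by 0.19 ± 0.051 (adjusted p = 0.00536) in fusion, from 0.11 ± 0.035 in HCC1806 and -0.09 ± 0.038 in MDA-MB-231. DLGAP5 differed by 0.32 ± 0.077 (adjusted p = 0.00650) in slippage, a call lost (adjusted p 0.125 on log2(TPM + 1) and 0.0714 when HCC1806 slippage 1 was left out). In cytokinesis failure, HMMR differed by 1.06 ± 0.18 (adjusted p = 6.90e-06) and PTTG1 by 0.48 ± 0.093 (adjusted p = 0.000132). CENPE differed in the other direction, by -0.38 ± 0.071 (adjusted p = 5.27e-05), falling in HCC1806 and lying at 0.14 ± 0.048 in MDA-MB-231. Without both MDA-MB-231 libraries that stood apart, the adjusted p of the 3 slippage differences named here was 3.88e-05 to 0.00212 and that of the 3 in cytokinesis failure 8.01e-07 to 4.56e-05. On log2(TPM + 1) with limma, the differences called in fusion were 5 higher and 0 lower.

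The parental lines themselves differed in 36 of 40 members, 9 higher (38.8% of all genes) and 27 lower (37.4%) in HCC1806. On the scale of the 24-library fit, BUB1 stood at 67.5, 81.3 and 71.4 CPM in HCC1806 and 163, 173 and 159 in MDA-MB-231, lower by 1.17 ± 0.071. TOP2A stood at 792, 786 and 787 and 1441, 1429 and 1465 CPM, lower by 0.87 ± 0.036. HMMR was the other way round, at 74.1, 84.8 and 79.2 against 23.7, 22.7 and 22.8 CPM (1.78 ± 0.11), as was BIRC5, at 515, 495 and 473 against 254, 255 and 255 CPM (0.95 ± 0.048). The largest adjusted p of these 4 was 3.24e-26, and the libraries of the lines did not overlap for any of them. With scaling by library totals the all-gene median was -0.12 and 7 members were higher and 28 lower.

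Members were then set beside the tested genes within 5 Mb on their chromosome (RefSeq positions on GRCh38.p14), a comparison added after the data were seen and given as a description. The 5 genes that rose throughout HCC1806 lie on 5 different chromosomes, and their neighbours had medians from -0.09 to 0.04, against rises of 0.19 ± 0.049 (CCNB1 in fusion) to 0.37 ± 0.056 (DLGAP5 in cytokinesis failure) for the genes. Of 40 members, 34 lay above the median of their neighbours in HCC1806 fusion, 29 in slippage and 33 in cytokinesis failure, and of 39 in MDA-MB-231 29, 23 and 28. For 3 members, picked as examples after their values were seen, the neighbours' median had the sign of the gene's own change. Around NUSAP1 (chr15:41332881-41381046) in HCC1806 fusion the median was -0.19 over 75 genes (0 rose and 24 fell). Around CENPE (chr4:103105811-103198343) in HCC1806 cytokinesis failure it was -0.27 over 24 genes (0 rose and 12 fell), close to the fall of CENPE itself. Around CENPA (chr2:26786056-26794589) in MDA-MB-231 fusion it was 0.31 over 48 genes (20 rose and 0 fell). HMMR (chr5:163460632-163491941) and PTTG1 (chr5:160421855-160428744) lie 3.051 Mb apart and are neighbours of each other. In MDA-MB-231, genes around HMMR had a median of 0.10 over 11 genes (2 rose and 0 fell) in fusion and -0.23 over 11 genes (0 rose and 3 fell) in cytokinesis failure, smaller than the changes of HMMR in both. Around PTTG1 in cytokinesis failure it was -0.24 over 15 genes (1 rose and 2 fell), about the fall of PTTG1 itself. Over the 464 tested genes of the whole of chromosome 5 in MDA-MB-231, the median was 0.11 in fusion and -0.13 in cytokinesis failure. The part of these neighbourhoods in the members' changes was not tested, and the genome sequencing of the study was not analysed here.

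**Figure D5:**
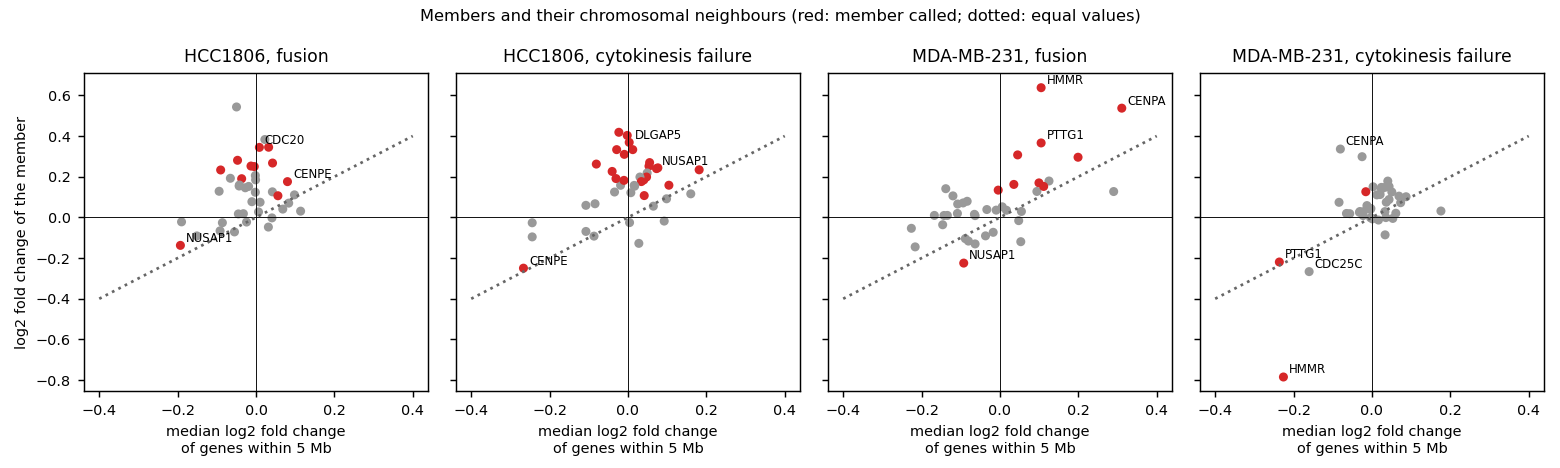
Log2 fold change of each member (vertical axis) against the median log2 fold change of tested genes within 5 Mb (horizontal axis) in 4 comparisons with control, red where the member was called; the dotted line marks equal values. In both HCC1806 panels most points lie above the dotted line, NUSAP1 in fusion and CENPE in cytokinesis failure lie near it with negative neighbour medians, and HMMR lies far above it in MDA-MB-231 fusion and far below it in cytokinesis failure.

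Other genes of the same processes were counted in the same comparisons. Numbers that rose and fell were, of 28 other kinetochore and centromere genes, 5 and 1 in HCC1806 fusion, 2 and 1 in HCC1806 slippage, 4 and 2 in HCC1806 cytokinesis failure and 5 and 2 in MDA-MB-231 fusion, and 0 in MDA-MB-231 slippage and MDA-MB-231 cytokinesis failure. KNL1, the scaffold on which BUB1 assembles (listed as CASC5), fell in HCC1806 fusion (-0.38 ± 0.057), and the inner kinetochore gene CENPI rose in MDA-MB-231 fusion (0.66 ± 0.13). Of 24 other checkpoint and anaphase-promoting complex genes the counts were 1 and 1 in HCC1806 fusion, 2 and 1 in HCC1806 cytokinesis failure, 1 and 1 in MDA-MB-231 fusion, 0 and 2 in MDA-MB-231 slippage and 0 and 2 in MDA-MB-231 cytokinesis failure, and 0 in HCC1806 slippage. SPDL1, which brings dynein to kinetochores, fell in MDA-MB-231 slippage (-0.25 ± 0.067) and cytokinesis failure (-0.35 ± 0.068). Of 22 other mitotic entry, spindle and cytokinesis genes they were 3 and 1 in HCC1806 fusion, 6 and 1 in HCC1806 cytokinesis failure and 1 and 3 in MDA-MB-231 fusion, and 0 in HCC1806 slippage, MDA-MB-231 slippage and MDA-MB-231 cytokinesis failure. The spindle protein CKAP2 fell in HCC1806 fusion (-0.38 ± 0.058) and rose in cytokinesis failure (0.26 ± 0.054). Of 8 condensin genes, which compact chromosomes, they were 2 and 0 in HCC1806 cytokinesis failure and 2 and 0 in MDA-MB-231 fusion, and 0 in HCC1806 fusion, HCC1806 slippage, MDA-MB-231 slippage and MDA-MB-231 cytokinesis failure. For 12 mitotic kinesins they were 1 and 0 in HCC1806 fusion, 2 and 0 in HCC1806 slippage, 3 and 0 in HCC1806 cytokinesis failure and 3 and 1 in MDA-MB-231 fusion, and 0 in MDA-MB-231 slippage and MDA-MB-231 cytokinesis failure. The kinesin KIF4A rose by 0.31 ± 0.068 in HCC1806 cytokinesis failure and 0.32 ± 0.074 in MDA-MB-231 fusion. Of the 13 MuvB, DREAM and MYB genes that act on CHR promoters (12 tested in HCC1806), the counts were 1 and 0 in HCC1806 fusion, 4 and 0 in HCC1806 cytokinesis failure, 1 and 1 in MDA-MB-231 fusion, 0 and 1 in MDA-MB-231 slippage and 1 and 0 in MDA-MB-231 cytokinesis failure, and 0 in HCC1806 slippage. MYBL2, the B-MYB factor of the activating complex, rose in HCC1806 cytokinesis failure (0.26 ± 0.064) and fell in MDA-MB-231 fusion (-0.46 ± 0.10) and slippage (-0.34 ± 0.10). Where a count is 0 for these lists or for the replication genes, edgeR had 0 to 5 genes in that direction at an unadjusted p below 0.05 and DESeq2 called 0. Cyclin E1 (CCNE1), of the replication list, fell in the 3 HCC1806 populations, by 0.49 ± 0.092, 0.34 ± 0.089 and 0.44 ± 0.088.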

How the data were processed

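TAGseq libraries from 8 populations of HCC1806 and MDA-MB-231 were used, 3 per population. The authors deposited Salmon estimated counts and TPM per gene for every library; STAR, Salmon and GRCh38 (hg38) are named, per the submitters' processing notes, without versions, and the annotation, strand setting and use of molecular identifiers are not given in the sources used here. Estimated counts (4.41% not whole) were rounded; totals were 2455707 to 4030297 per library, and their number limits the precision. Rows of 61 gene names occur more than once and were tested by identifier.

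Genes were filtered with filterByExpr, scaled by TMM and tested with edgeR 4.0.16 (R 4.3.3), with robust quasi-likelihood F-tests and Benjamini-Hochberg adjustment over all genes tested, in 1 fit of 12 libraries per line, or of 24 for differences between lines. Standard errors are the absolute log2 fold change divided by the square root of F. Alternatives were DESeq2 1.42.0, limma 3.58.1 on log2(TPM + 1) and log2(TPM + 0.1), RLE size factors, no filter or at least 2 CPM in 3 libraries, a replicate block, the 6 libraries compared alone, leaving libraries out and, added after the data were seen, scaling by library totals. Tests were checked on simulated counts with known changes before use. Replicates are separate cultures only as far as the labels call them biological replicates, so p-values may measure technical spread. Same replicate numbers did not pair the libraries (correlations of deviations from -0.19 to 0.09). Pairs with different numbers reached 0.20 in HCC1806 and 0.17 in MDA-MB-231, with 4 of 36 above 0.1 in each line. A pairing under other numbers was not tested. The members, gene lists and motifs were chosen with earlier results of these data known. Values per library are given for the 4 called members of smallest adjusted p in each comparison with control, the 2 of each pair of populations and the 4 of the parental lines. They are also given for those called in all 3 populations of a line and those called in opposite directions. The 3 of each line difference are given by fold change, and their calls were rechecked in the alternatives. Of each list of other genes, up to 2 called genes of smallest adjusted p per comparison were picked, of which some are named by fold change. Members outside this rule are given by fold change, and their calls were not rechecked one by one in the alternatives. Neighbours within 5 Mb used RefSeq GRCh38.p14 positions.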

Additional observations from a re-analysis of the deposited data

Results flagged for a closer look

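These members had effects that differed between the lines, by a contrast of the fold change in HCC1806 minus that in MDA-MB-231 in edgeR over all 24 libraries. After fusion the difference was 0.39 ± 0.10 for BUB1 (log2, ± standard error, adjusted p = 0.00392), 0.47 ± 0.081 for CDC20 (adjusted p = 1.37e-05) and 0.19 ± 0.051 for TOP2A (adjusted p = 0.00536). After slippage it was 0.52 ± 0.10 for BUB1 (adjusted p = 0.000307), 0.42 ± 0.082 for CDC20 (adjusted p = 0.000456) and 0.32 ± 0.077 for DLGAP5 (adjusted p = 0.00650). After cytokinesis failure it was 0.48 ± 0.093 for PTTG1 (adjusted p = 0.000132), 1.06 ± 0.18 for HMMR (adjusted p = 6.90e-06) and -0.38 ± 0.071 for CENPE (adjusted p = 5.27e-05). CDC20 and BUB1 were each lower in all 3 MDA-MB-231 slippage libraries than in all 3 controls and higher in all 3 HCC1806 slippage libraries. HMMR and PTTG1, 3.051 Mb apart on chromosome 5, were lower than all controls in the 3 MDA-MB-231 cytokinesis failure libraries and higher in the 3 of HCC1806. The genes around CENPE had a median of -0.27 in HCC1806 cytokinesis failure and 0.02 in MDA-MB-231. Only named members were screened.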

How the results depend on the processing

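Of 58 named pairs of a member and a comparison, 28 kept their direction and call in every alternative, 30 lost the call in at least 1 and 0 changed direction. Numbers of members called differed between tools. With DESeq2 they were 6 in place of 11 for HCC1806 fusion, 2 in place of 7 for slippage, 4 in place of 7 for fusion against slippage, and in MDA-MB-231 6 in place of 10 for fusion, 1 in place of 3 for slippage, 7 in place of 11 for fusion against cytokinesis failure and 1 in place of 2 for slippage against cytokinesis failure. With limma on log2(TPM + 1) and log2(TPM + 0.1) the same 2 HCC1806 comparisons with control gave 2 and 2, and 0 and 0 (10 and 10 at an unadjusted p below 0.05), fusion against slippage 1 and 1, MDA-MB-231 fusion 5 and 4, slippage 1 and 1, cytokinesis failure 1 and 1, slippage against cytokinesis failure 0 and 0 (9 and 9 unadjusted), and the line differences in fusion 5 and 5 (main 8) and in slippage 2 and 2 (main 4). Over all genes, in the order fusion, slippage and cytokinesis failure of HCC1806 and then MDA-MB-231, 1247, 382, 1950, 1993, 706 and 530 were called in the main analysis, 648, 142, 975, 1197, 343 and 302 with DESeq2 and 706, 88, 1306, 1706, 169 and 178 with limma on log2(TPM + 1), so that the background fell as well; the cause was not tested. With limma, members called fell further than the background in HCC1806 fusion, HCC1806 slippage and MDA-MB-231 fusion. Their share of calls there was not above that of all genes. On log2(TPM + 1) the all-gene median moved to -0.11 in MDA-MB-231 fusion and to -0.12 between the parental lines. With no filter on low counts, members called were 7 in MDA-MB-231 fusion against cytokinesis failure and 4 in slippage against cytokinesis failure, and with only the 6 libraries compared 7 and 1. Without both MDA-MB-231 libraries that stood apart, fusion against slippage had 11. With the replicate number as a block, MDA-MB-231 slippage had 1 and cytokinesis failure 1, and 14 of 16 counts stayed within 1.5 times of the main value; no same-numbered pair of libraries had a correlation above 0.1, so the numbers are not taken as pairs. Leaving out each library in turn gave 5 to 11 members in HCC1806 fusion, 3 to 6 in slippage, 16 to 20 in cytokinesis failure, 5 to 7 in fusion against slippage, 8 to 10 in fusion against cytokinesis failure and 1 to 3 in slippage against cytokinesis failure; in MDA-MB-231 4 to 8, 1 to 4, 1 to 2, 4 to 8, 7 to 9 and 1 to 3 in the same order; 6 to 9, 3 to 5 and 5 to 9 for the line differences; and 34 to 36 between the parental lines. In the 250 bases before the start alone, 53.1% of the members' promoters held a CHR (9.21% of those of tested genes). Depth limits SPC24 most, at 2 to 12 counts per library.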
